A study of Mus musculus with 8 samples.

Results

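The insulin-like growth factor (IGF) genes measured in fibroadipogenic progenitors of mouse hindlimb muscle were followed across 3 groups of mice. The 10 genes were chosen by name among the 24419 gene symbols of the deposited count table. They are the ligands Igf1 and Igf2, the receptors Igf1r and Igf2r, and the binding proteins Igfbp2, Igfbp3, Igfbp4, Igfbp5, Igfbp6 and Igfbp7. All 10 passed the filter on low counts, as did 13646 genes in all. In the series, which is about pancreatic cancer cachexia, RNA was sequenced from freshly sorted progenitors of male C57BL/6J mice, 1 library per biological replicate.

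The knockdown group (n = 3) carried KPCY cells in the pancreas that had been given a lentiviral vector against miR-27a-3p. The scrambled group (n = 3) carried KPCY cells transduced with a scrambled sequence. The sham group (n = 2) had sham surgery and no KPCY cells. KPCY is a mouse pancreatic cancer line. Both transduced lines were selected for 7 days with 2 µg/mL puromycin and injected in a volume of 50 µL. The inhibitor was in the implanted cells and not in the sorted progenitors, and the labels give neither the age of the mice nor the day of sorting. Progenitors were gated as viable nucleated cells with SCA-1 and without CD31, CD45 and α7-integrin.

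IGF-I and IGF-II are secreted peptides that act through the IGF1R tyrosine kinase and drive growth, survival and protein synthesis through PI3K and AKT. IGF2R is a receptor without kinase activity that takes up and degrades IGF-II. Most secreted IGF is held by IGF-binding proteins, which limit its access to IGF1R and extend its life, and proteases that cut these proteins set it free. In muscle, IGF-I is a growth signal for fibres and satellite cells, and stromal cells are among its local sources.

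The promoters of Igfbp3 and Igfbp5 are given first, since these genes held the largest differences among the 10 genes apart from the barely detected Igfbp2, and in opposite directions. Each is a window of 300 bases around the RefSeq start site in the build GRCm38.p6, most of it upstream, read 5′ to 3′ on the minus strand, with the sequence from RefSeq. All 10 genes matched the RefSeq promoters, with 14 windows in all. Capitals mark a TATA-like motif.
Igfbp3, chr11:7213874-7214173: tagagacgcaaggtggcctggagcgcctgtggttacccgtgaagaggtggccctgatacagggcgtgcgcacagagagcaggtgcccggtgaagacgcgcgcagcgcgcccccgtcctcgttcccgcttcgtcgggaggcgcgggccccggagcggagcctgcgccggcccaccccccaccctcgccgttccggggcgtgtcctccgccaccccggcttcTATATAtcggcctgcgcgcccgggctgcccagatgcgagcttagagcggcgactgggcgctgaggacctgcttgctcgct
Igfbp5, chr1:72874816-72875115: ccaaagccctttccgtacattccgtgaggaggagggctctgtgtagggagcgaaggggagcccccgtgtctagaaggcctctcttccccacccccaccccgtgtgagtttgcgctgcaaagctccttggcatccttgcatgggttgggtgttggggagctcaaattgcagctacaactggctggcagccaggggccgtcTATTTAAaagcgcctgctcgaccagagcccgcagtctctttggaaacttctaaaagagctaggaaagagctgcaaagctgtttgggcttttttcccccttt

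TATATA stood at bases -30 to -25 from the Igfbp3 start and TATTTAA at bases -51 to -45 from the Igfbp5 start. Over 32544 RefSeq mouse promoters of the same length, searched on both strands, TATATA was found in 5.44% and TATTTAA in 4.49%. The Igfbp3 promoter was 71.7% G and C and held 37 CpG, and that of Igfbp5 was 56.3% G and C and held 10 CpG, against medians of 53.0% and 7.0 over all promoters. The E-box CANNTG, present in 72.3% of promoters, occurred in both. Neither window held the TATA box TATAAA (in 13.6% of promoters), the GC box GGGCGG (35.9%), the STAT motif TTCNNNGAA (8.33%) or the C/EBP motif TTGCNNCAA (2.09%). Also absent from both were the FOXO motif GTAAACA (3.66%), the HIF motif ACGTG (19.7%) and the AP-1 motif TGACTCA (5.19%). So was AGAACA (18.9%), a half-site of the glucocorticoid receptor motif, whose full form was not searched. An absent match says only that these letters are not in the window.

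The microRNA that was inhibited in the implanted cells, mature miR-27a-3p (chr8:84208727-84208747, plus strand, GRCm38.p6, from RefSeq), is given with its seed, bases 2 to 8, in capitals.
miR-27a-3p: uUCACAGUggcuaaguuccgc

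Its precursor gene Mir27a had no reads in the knockdown libraries, 12, 12 and 3 in the scrambled libraries and none in the sham libraries, in libraries of polyadenylated RNA that do not measure mature microRNA. These reads come from the sorted progenitors and do not show the knockdown in the implanted cells.

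Total counts ran from 17454630 to 22197054 in knockdown, from 16183771 to 28340450 in scrambled and from 15647436 to 17384878 in sham libraries. The marker Pdgfra was at 1449 to 1477 CPM in knockdown, 1519 to 1586 CPM in scrambled and 1256 and 1588 CPM in sham libraries (CPM, read counts scaled by library size and composition). Ly6a, which encodes SCA-1, stood at 1033 to 1175 CPM in knockdown, 451, 1136 and 436 CPM in scrambled libraries 1, 2 and 3, and 951 and 933 CPM in sham libraries. Among the genes of the surface proteins used to leave cells out, Ptprc (CD45) reached 2.51 CPM at most, Itga7 11.5 CPM and Pecam1 (CD31) 73.0 CPM. The scrambled group was uneven: the first principal component (61.1% of the variance) put the knockdown libraries between -39.5 and -32.3, scrambled library 1 at 115, scrambled library 2 at -12.3, scrambled library 3 at 92.0, and the sham libraries at -47.7 and -42.1. For each of the 10 genes but Igfbp2, the changes that involve the scrambled group are therefore also given without its library 2 and with library 2 as the only one of its group. With library 2 alone the group has no spread of its own, and the fit takes it from the other groups. In bulk RNA a smaller share of cells of a type and less RNA per cell cannot be told apart.

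Between scrambled and sham libraries, Igfbp5 was the only one of the 10 genes that passed the test. It fell 4.65-fold, by 2.22 ± 0.35 (SE) on the log2 scale (edgeR quasi-likelihood test with Benjamini-Hochberg adjustment over all genes, adjusted p = 0.0265). That is 1 called gene of 10, while 1.58% of the 13646 tested genes were called, 1.10% higher and 0.476% lower. Igfbp3 had the largest difference of the 10 genes in this comparison, a log2 change of 6.14 ± 1.26, and missed the threshold of 0.05 (adjusted p = 0.0520). Between knockdown and scrambled libraries none of the 10 genes passed, while 0.0513% of all tested genes did, 0.00733% higher and 0.0440% lower, and the same tool gave 6 of the 10 and 4428 of all genes (32.4%) at an unadjusted p under 0.05. Between knockdown and sham libraries none passed either, against 0.00733% of all genes, with 0 of the 10 and 323 of all genes (2.37%) at an unadjusted p under 0.05. DESeq2 called many more genes throughout: 5 of the 10 and 15.2% of all genes in scrambled against sham libraries, 6 of the 10 and 17.0% of all in knockdown against scrambled, and 0 of the 10 and 0.183% of all in knockdown against sham. With scrambled library 2 left out, edgeR likewise called 6 of the 10 and 50.7% of all genes in the first of these comparisons, and 6 of the 10 and 53.8% of all in the second. The comparisons share libraries, so the values of each are set side by side and not as independent results.

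**Figure D1:**
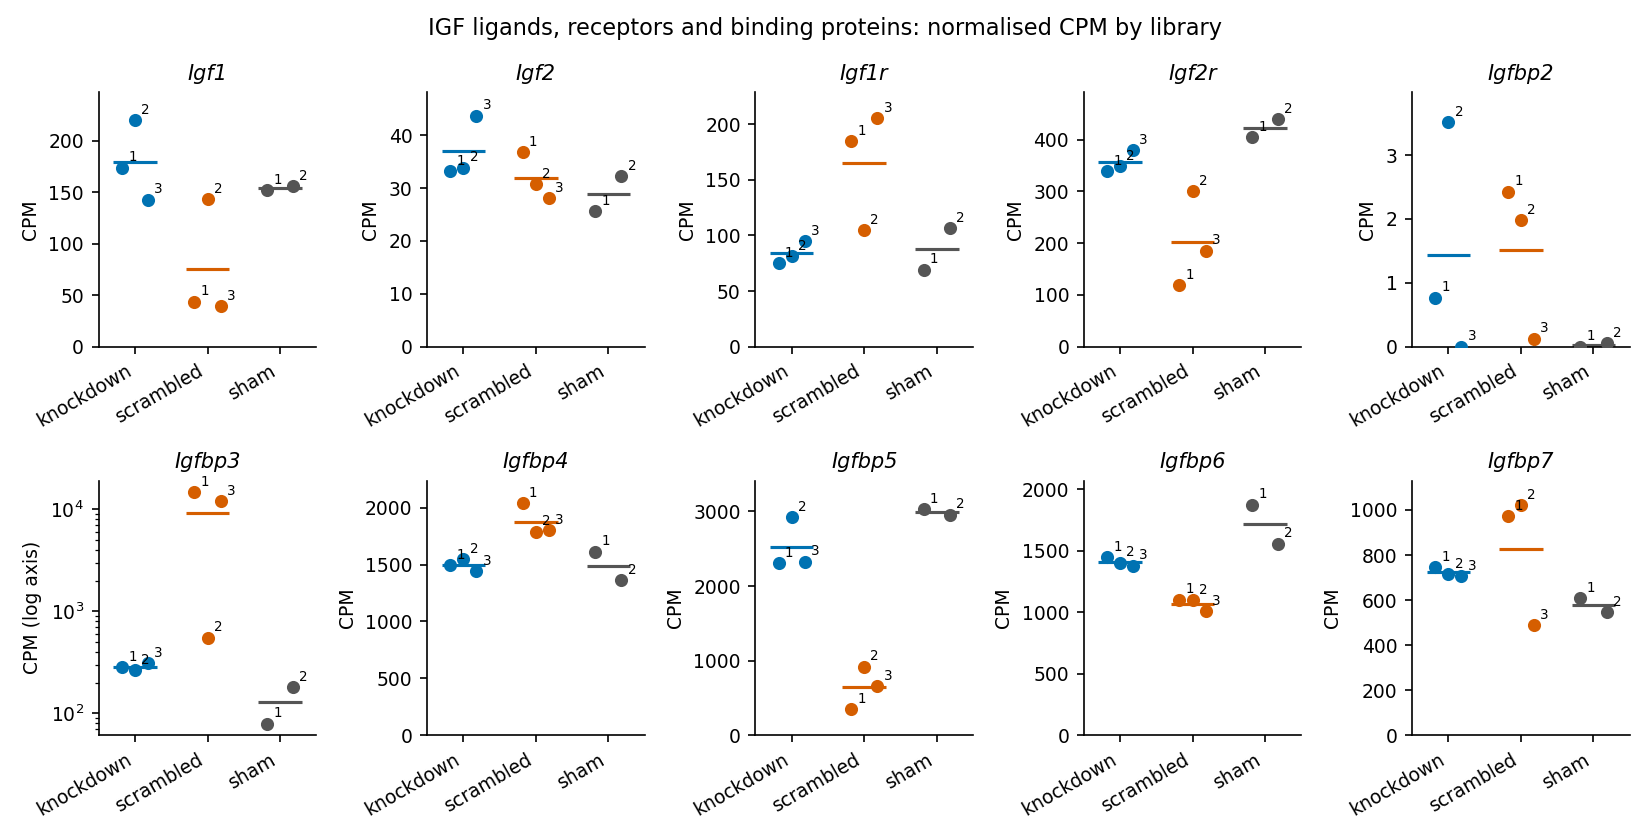
Normalised CPM of the 10 IGF genes in each library (points, 1 per library; horizontal bars, group means) for knockdown (n = 3), scrambled (n = 3) and sham (n = 2); linear axes from 0 except for Igfbp3, which is on a log axis. Igfbp5 lay between 2312 and 2927 CPM in knockdown, between 353 and 921 CPM in scrambled and at 3029 and 2958 CPM in sham libraries, and Igfbp3 was at most 311 CPM in knockdown, 14743, 552 and 12089 CPM in scrambled and at most 180 CPM in sham libraries.

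Igf1, which encodes the main postnatal ligand, was uneven within the scrambled group. It stood at 174, 220 and 143 CPM in knockdown libraries 1, 2 and 3, at 43.7, 144 and 39.8 CPM in scrambled libraries 1, 2 and 3, and at 152 and 156 CPM in sham libraries 1 and 2. Scrambled libraries 1 and 3 lay far below every other library, and library 2 lay just under both sham libraries and within the range of the knockdown libraries. The log2 change was -1.02 ± 0.49 for scrambled against sham (adjusted p = 0.195) and 1.24 ± 0.45 for knockdown against scrambled libraries (adjusted p = 0.109), neither past the threshold in edgeR. Without scrambled library 2 these changes were -1.87 (adjusted p = 1.45e-05) and 2.09 (adjusted p = 4.11e-06), and with library 2 as the only scrambled library they were -0.10 and 0.32, not called. DESeq2 called only the second (1.23, adjusted p = 0.0379), and over the 17 alternatives the adjusted p ran from 1.45e-05 to 0.888 in the first comparison and from 4.11e-06 to 0.568 in the second. The Igf1 gene lies at chr10:87858265-87937042 on the plus strand (GENCODE M21, GRCm38).

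Igf2, the ligand most active in fetal growth, is imprinted and lies at chr7:142650766-142666816 on the minus strand. It was at 33.3, 33.9 and 43.7 CPM in knockdown, 36.8, 30.7 and 28.1 CPM in scrambled and 25.7 and 32.3 CPM in sham libraries. The knockdown values all exceeded the sham values, but the log2 change of 0.35 ± 0.22 did not pass (adjusted p = 1), and scrambled against sham gave 0.14 ± 0.21 (adjusted p = 0.666). The log2 changes of Igf2 without scrambled library 2 were 0.18 in scrambled against sham and 0.17 in knockdown against scrambled libraries, and with library 2 alone they were 0.08 and 0.27, none of them called. The annotation places 3596 exon bases of Igf2 within Gm49394 on the same strand, which is not listed in the count table, and 98 bases opposite Igf2os. How reads in shared bases were assigned is not given in the sources used here, so the level of Igf2 is uncertain to that extent.

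Igf1r, the signalling receptor (chr7:67952827-68233668, plus strand), was at 75.1, 81.2 and 95.2 CPM in knockdown, 185, 105 and 205 CPM in scrambled and 69.3 and 106 CPM in sham libraries. Scrambled libraries 1 and 3 were above all others, and library 2 fell within the sham range. The log2 change was 0.91 ± 0.31 for scrambled against sham (adjusted p = 0.111) and -0.98 ± 0.27 for knockdown against scrambled libraries (adjusted p = 0.0752). Without scrambled library 2 both passed, at 1.15 (adjusted p = 0.000495) and -1.22 (adjusted p = 0.00013). With library 2 alone the changes were 0.25 and -0.32, and neither passed. DESeq2 called both, and over the 17 alternatives the adjusted p ran from 0.000495 to 0.677 in the first comparison and from 0.00013 to 0.581 in the second.

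Igf2r, the scavenging receptor for IGF-II, was lowest in the scrambled group. It was at 339, 349 and 380 CPM in knockdown, 119, 301 and 186 CPM in scrambled and 405 and 440 CPM in sham libraries. All 3 scrambled libraries lay below all others, library 2 the least so. The log2 change was -1.06 ± 0.32 for scrambled against sham (adjusted p = 0.0945) and 0.82 ± 0.29 for knockdown against scrambled libraries (adjusted p = 0.105). Without scrambled library 2 these were -1.47 (adjusted p = 8.3e-05) and 1.22 (adjusted p = 0.000158), and with library 2 alone -0.49 and 0.24, not called. DESeq2 called both, and over the 17 alternatives the adjusted p ran from 8.3e-05 to 0.391 in the first comparison and from 0.000158 to 0.516 in the second. Igf2r lies at chr17:12682406-12769664 on the minus strand and is overlapped, without shared exon bases, by the antisense RNA gene Airn, which silences the paternal copy in many mouse tissues. Airn was at 13.8, 13.7 and 10.6 CPM in knockdown, 2.82, 7.86 and 4.16 CPM in scrambled and 12.8 and 9.71 CPM in sham libraries, also lower in each scrambled library than in all others. Whether counting used strand is not given in the sources used here, and without strand Airn reads and intronic Igf2r reads cannot be told apart.

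Among the binding proteins, Igfbp5 was the one called. It encodes an IGF-binding protein that also binds extracellular matrix and is made by fibroblasts and by differentiating myoblasts, and lies at chr1:72857932-72874884 on the minus strand. It was at 2312, 2927 and 2327 CPM in knockdown libraries 1, 2 and 3, at 353, 921 and 656 CPM in scrambled libraries 1, 2 and 3, and at 3029 and 2958 CPM in sham libraries 1 and 2. The scrambled libraries lay below all others with a wide gap, library 2 included. The group means were 2522 ± 351 CPM in knockdown (SD, n = 3), 643 ± 284 CPM in scrambled (n = 3) and 2993 ± 49.9 CPM in sham libraries (n = 2).

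The fall of Igfbp5 in scrambled against sham libraries stayed between -2.57 and -1.70 on the log2 scale in 17 alternative settings, of which 9 kept the call (adjusted p from 7.94e-08 to 0.237). Among the 8 settings that lost the call were the omission of sham library 1 (adjusted p = 0.237), of sham library 2 (0.186), of scrambled library 3 (0.0991) and of any 1 knockdown library (0.0686 to 0.0717), and the fit of only the 2 groups compared (adjusted p = 0.195). It held without scrambled library 2 (log2 change -2.57, adjusted p = 1.58e-05). With library 2 as the only scrambled library the change was -1.70. For knockdown against scrambled libraries Igfbp5 was 3.92 times as high, with a log2 change of 1.97 ± 0.33 (adjusted p = 0.0610), just outside the threshold. That comparison passed without scrambled library 2 (2.32, adjusted p = 1.94e-05) and with DESeq2 (1.96, adjusted p = 3.3e-07), and its adjusted p reached 0.238 over the 17 alternatives. With library 2 alone its change was 1.45. Knockdown against sham libraries gave -0.25 ± 0.35 (adjusted p = 1), although all 3 knockdown values were below both sham values. This SE rests on a spread shared by all 3 groups, the uneven scrambled group included. None of the 17 alternatives called Igfbp5 in this comparison.

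Igfbp3 encodes the main carrier of IGF in blood, which also acts on cells without IGF, and lies at chr11:7206086-7213923 on the minus strand. It was at 283, 263 and 311 CPM in knockdown libraries, at 14743, 552 and 12089 CPM in scrambled libraries 1, 2 and 3, and at 79.1 and 180 CPM in sham libraries 1 and 2. Scrambled libraries 1 and 3 were far above all others, and library 2 was the next highest. The gene took 0.0270% to 0.0321% of all counts in knockdown libraries, 1.33%, 0.0549% and 1.19% in scrambled libraries (376276, 13072 and 191966 reads) and 0.0080% and 0.0186% in sham libraries.

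The means were 286 ± 24.5 CPM in knockdown (SD, n = 3), 9128 ± 7544 CPM in scrambled (n = 3) and 130 ± 71.4 CPM in sham libraries (n = 2), and that of the scrambled group describes no single library. Igfbp3 was called in scrambled against sham libraries in 3 of 17 alternative settings, without scrambled library 2 (log2 change 6.70, adjusted p = 5.96e-07), with DESeq2 (6.16, adjusted p = 7.17e-06) and without the filter on low counts (6.10, adjusted p = 0.0396). With library 2 as the only scrambled library the change was 2.09, and the adjusted p reached 0.377 over the alternatives. Knockdown against scrambled libraries gave -5.00 ± 0.99 (adjusted p = 0.0644), with -5.56 without library 2 (adjusted p = 4.72e-07), -0.95 with library 2 alone and -5.03 with DESeq2 (adjusted p = 0.000108), and an adjusted p of up to 0.422 over the alternatives. Against sham libraries the knockdown libraries gave 1.14 ± 0.98 (adjusted p = 1), with every knockdown value above both sham values. Here too the SE rests on the spread shared with the uneven scrambled group, and none of the 17 alternatives called Igfbp3.

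**Figure D2:**
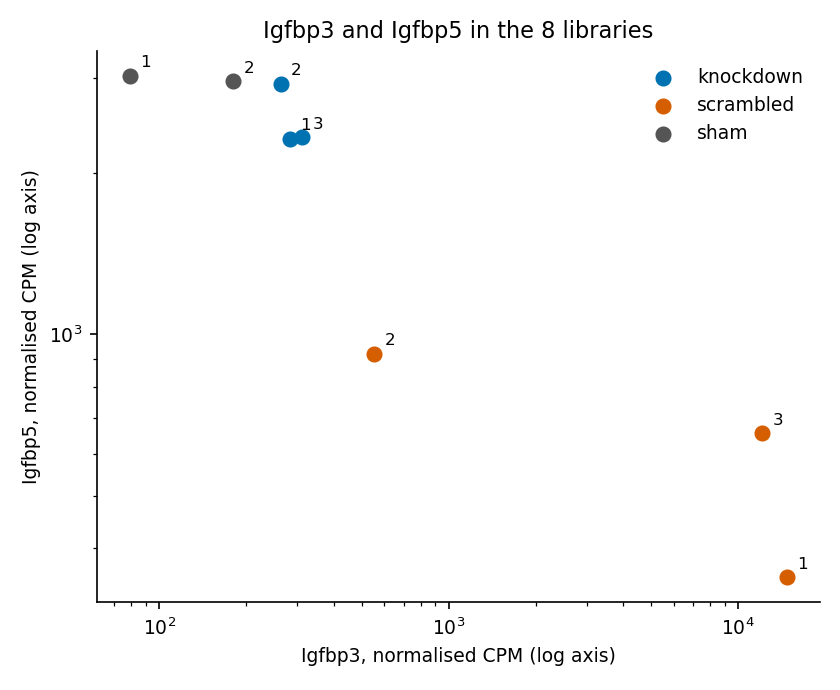
Igfbp3 against Igfbp5 in normalised CPM, both axes logarithmic, 1 point per library with the group as colour. The knockdown libraries lie at low Igfbp3 and high Igfbp5, scrambled libraries 1 and 3 at high Igfbp3 and low Igfbp5, scrambled library 2 between these, and the sham libraries at the lowest Igfbp3 and highest Igfbp5.

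Igfbp6, which binds IGF-II in preference to IGF-I, was even within the scrambled group. It was at 1451, 1404 and 1381 CPM in knockdown, 1104, 1098 and 1009 CPM in scrambled and 1876 and 1558 CPM in sham libraries. The 3 groups did not overlap, with scrambled lowest and sham highest. The log2 change was -0.68 ± 0.18 for scrambled against sham (adjusted p = 0.0796) and 0.40 ± 0.17 for knockdown against scrambled libraries (adjusted p = 0.139). Without scrambled library 2 both passed, at -0.69 (adjusted p = 0.00369) and 0.41 (adjusted p = 0.0327), with nearly the same change. With library 2 alone the changes were -0.65 and 0.36. DESeq2 called both (-0.67, adjusted p = 0.000785, and 0.38, adjusted p = 0.0429), and over the 17 alternatives the adjusted p reached 0.399 in the first comparison and 0.374 in the second. Igfbp6 lies at chr15:102144362-102149511 on the plus strand.

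Igfbp4, an inhibitory binding protein that the protease PAPP-A cuts, was at 1496, 1546 and 1442 CPM in knockdown, 2039, 1789 and 1799 CPM in scrambled and 1614 and 1366 CPM in sham libraries. Every scrambled value was above all others, by little. The log2 change was 0.33 ± 0.19 for scrambled against sham (adjusted p = 0.262) and -0.33 ± 0.17 for knockdown against scrambled libraries (adjusted p = 0.207). Leaving out scrambled library 2 gave 0.37 and -0.37, and with library 2 alone 0.26 and -0.26. Igfbp4, which lies at chr11:99041244-99054392 on the plus strand, was not called in any comparison under any of the 17 alternatives.

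Igfbp7 binds IGF weakly and is found in vessel walls and stroma. It was at 747, 715 and 707 CPM in knockdown, 973, 1021 and 489 CPM in scrambled and 608 and 546 CPM in sham libraries. Here it was scrambled library 3 that differed from the other scrambled libraries, falling below both sham libraries. The log2 change was 0.52 ± 0.30 for scrambled against sham (adjusted p = 0.256) and -0.19 ± 0.26 for knockdown against scrambled libraries (adjusted p = 0.608). With scrambled library 2 as the only one of its group, the change of Igfbp7 was 0.82 in scrambled against sham and -0.50 in knockdown against scrambled libraries. In scrambled against sham libraries its adjusted p reached 0.555 over the alternatives. Only the fit with library 2 alone, which takes its spread from the other groups, put Igfbp7 under the threshold. Without library 2 the changes of Igfbp7 were 0.35 (adjusted p = 0.271) and -0.02 (adjusted p = 0.936), neither called. The gene lies at chr5:77349240-77408041 on the minus strand and shares 85 exon bases with Polr2b on the opposite strand.

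Igfbp2, a binding protein abundant in fetal tissue and in blood, was near the limit of detection. It lies at chr1:72824503-72852474 on the plus strand. It had 15, 63 and 0 reads in knockdown, 62, 47 and 2 reads in scrambled and 0 and 1 reads in sham libraries. By counting error alone a library listed at 0 may stand for up to 3 reads, so no fold is given against sham libraries (adjusted p = 0.192 for scrambled against sham). Its neighbour on chromosome 1 is Igfbp5, on the other strand, with 5457 bases and no annotated gene between them. Igfbp1, which is not among the 10 genes and lies 3539 bases from Igfbp3 on chromosome 11, had 16 reads in scrambled library 1 and 0 in every other library.

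**Figure D3:**
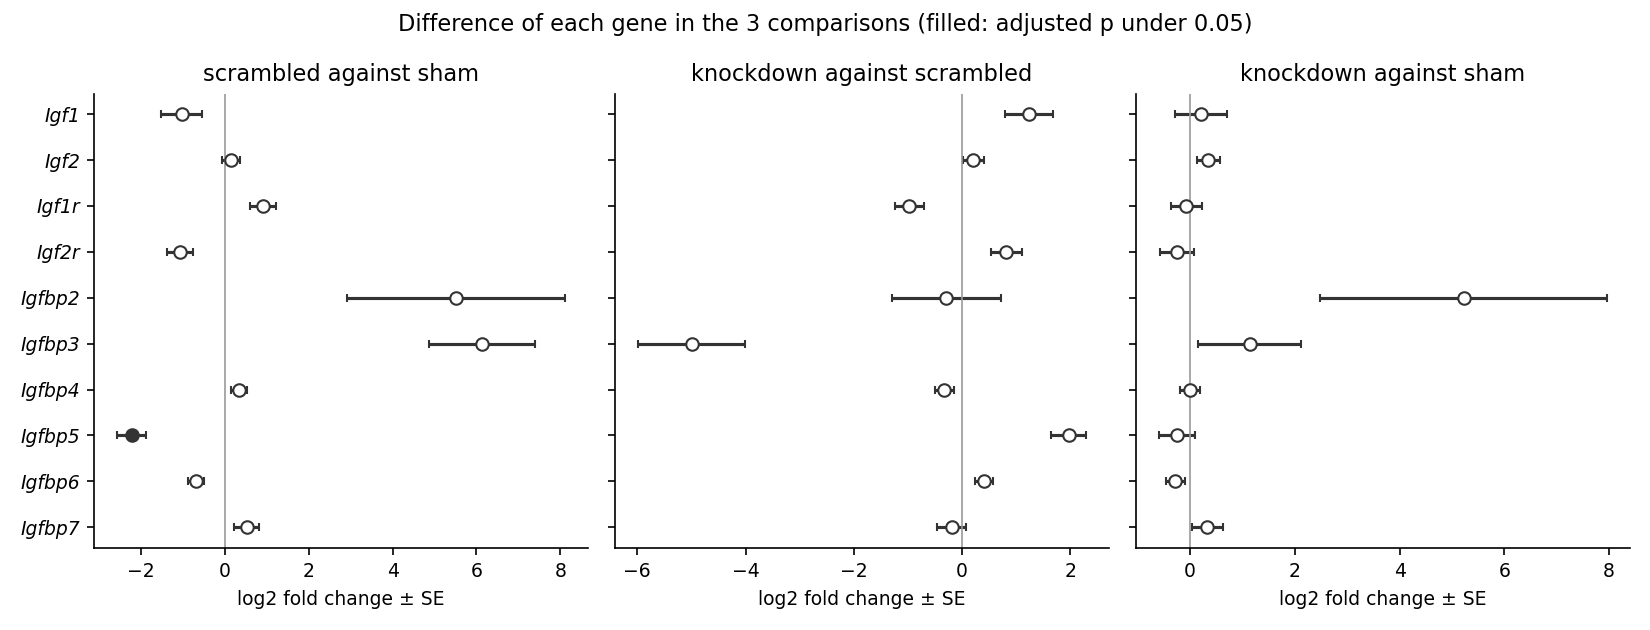
Log2 fold changes of the 10 genes in the 3 comparisons (points, edgeR estimates; bars, ± 1 SE). Igfbp5 at -2.22 in scrambled against sham is the only call, and the knockdown against sham changes of all genes but Igfbp2 and Igfbp3 lie between -0.28 and 0.35.

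In scrambled against sham libraries the CPM of the groups did not overlap for 7 of the 10 genes, 3 of them higher (20.2% of all tested genes) and 4 lower (20.8%). The 3 include the barely detected Igfbp2, with 2 reads in scrambled library 3 and 1 read in sham library 2. In knockdown against scrambled libraries the groups did not overlap for 6 of the 10, with 3 higher (17.5% of all genes) and 3 lower (16.7%). In knockdown against sham libraries they did not for 6, with 3 higher (13.8%) and 3 lower (13.5%). The median of the absolute log2 change was 0.96, 0.61 and 0.26 over the 10 genes in these comparisons, beside 0.51, 0.47 and 0.17 over all genes. The signed medians of the 10 genes were 0.24, 0.01 and 0.11, beside 0.00, 0.01 and -0.00 over all genes, with 6, 5 and 6 of the 10 changes above 0.

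The makeup of the binding-protein transcripts differed between the libraries. Igfbp3 made up 4.50%, 3.83% and 5.05% of the summed CPM of the 6 binding proteins in the knockdown, 76.7%, 10.3% and 75.4% in the scrambled and 1.10% and 2.73% in the sham libraries. Igfbp5 made up 36.8%, 42.7% and 37.7% in knockdown, 1.84%, 17.1% and 4.09% in scrambled and 42.0% and 44.8% in sham libraries. Per kb of exon sequence, the scale on which genes of different length can be ranked, Igfbp6 made up the largest share in each knockdown library (45.5% to 47.7%), in scrambled library 2 (38.5%) and in each sham library (54.7% and 51.7%), and Igfbp3 did in scrambled libraries 1 and 3 (67.0% and 67.9%). Igfbp5 made up 14.1%, 17.5% and 14.7% on this scale in knockdown, 0.837%, 5.97% and 1.92% in scrambled and 16.3% and 18.2% in sham libraries. The summed level was 6291, 6859 and 6168 CPM in knockdown, 19214, 5383 and 16040 CPM in scrambled and 7206 and 6608 CPM in sham libraries. Without Igfbp3 the sum was 5856 to 6596 CPM in knockdown, 3952 to 4831 CPM in scrambled and 6428 and 7126 CPM in sham libraries, lowest in the scrambled group. Within this sum the scrambled means of Igfbp5 (643 beside 2993 CPM in sham libraries) and Igfbp6 (1070 beside 1717 CPM) were lower. Those of Igfbp4 (1876 beside 1490 CPM), Igfbp7 (827 beside 577 CPM) and the barely detected Igfbp2 were higher.

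**Figure D4:**
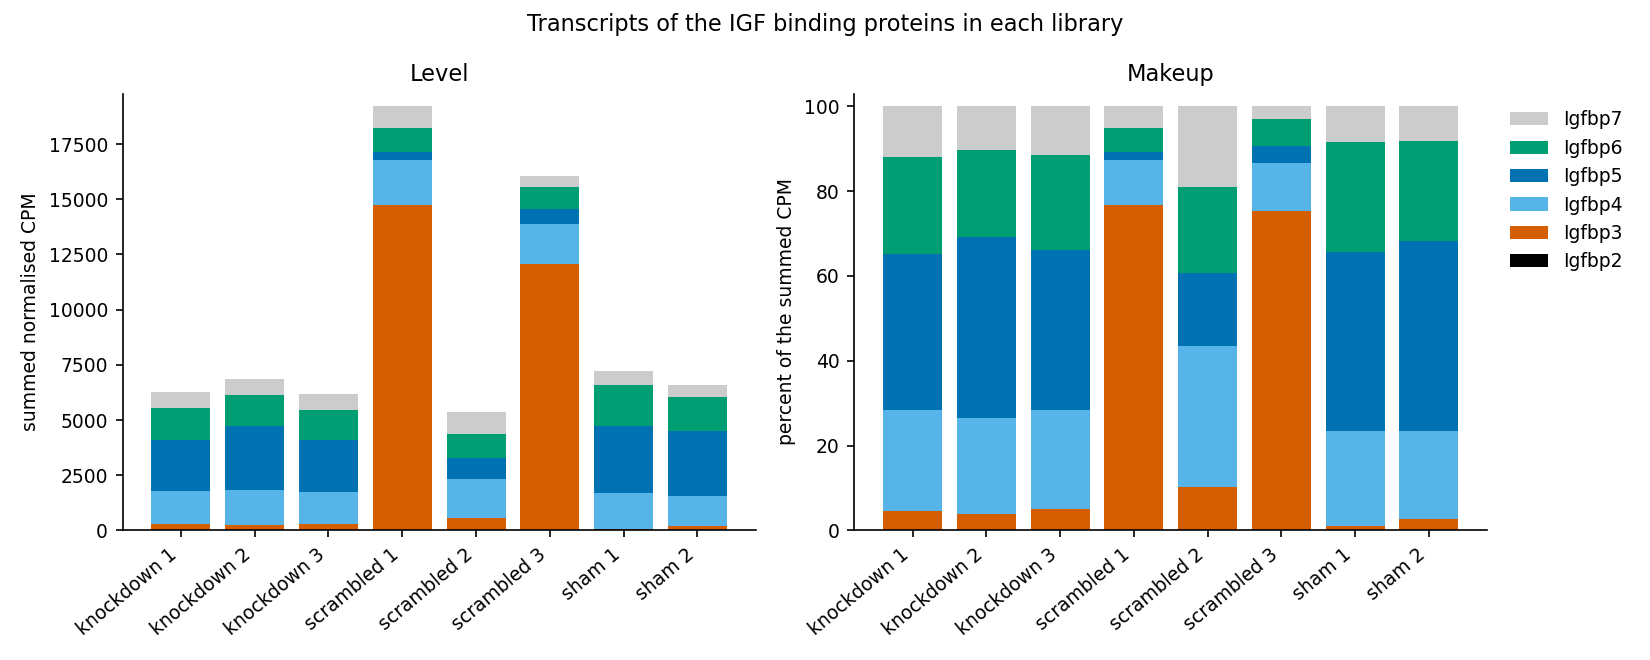
Stacked bars of the 6 binding-protein transcripts in each library, as summed normalised CPM (from 0) and as percent of that sum. Igfbp3 fills at most 5.05% of a knockdown bar, 76.7%, 10.3% and 75.4% of the scrambled bars and at most 2.73% of a sham bar.

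Levels of different genes were compared as CPM per kb of exon sequence. In knockdown libraries the order by group mean was Igfbp6 (1270 CPM per kb), Igfbp7 (598), Igfbp5 (420), Igfbp4 (338), Igfbp3 (91.3), Igf2r (38.3), Igf1 (18.1), Igf2 (6.45), Igf1r (4.99) and Igfbp2 (0.773). In scrambled libraries Igfbp3 led at 2916 CPM per kb, from 177 to 4710 over its libraries, ahead of Igfbp6 (962), Igfbp7 (684), Igfbp4 (425), Igfbp5 (107), Igf2r (21.7), Igf1r (9.82), Igf1 (7.64), Igf2 (5.57) and Igfbp2 (0.820). In sham libraries the order was Igfbp6 (1544 CPM per kb), Igfbp5 (498), Igfbp7 (477), Igfbp4 (337), Igf2r (45.4), Igfbp3 (41.4), Igf1 (15.6), Igf1r (5.23), Igf2 (5.06) and Igfbp2 (0.0151). Igfbp5 was thus between Igfbp7 and Igfbp4 in knockdown libraries and below both in scrambled libraries. No neighbours in the order overlapped between their libraries in the knockdown group. In the scrambled group the ranges overlapped between Igfbp3 and Igfbp6, Igfbp7 and Igfbp4, Igf1r and Igf1, and Igf1 and Igf2. In the sham group they overlapped between Igfbp5 and Igfbp7, Igf2r and Igfbp3, and Igf1r and Igf2.

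The genes whose log2 CPM was most like that of Igfbp5 over the 8 libraries, among 10276 genes, were H1f0 (Pearson r = 0.995), Sgms2 (0.994), Zeb1 (0.990), Stard13 (0.988) and Sdc3 (0.988). They were picked for this likeness, and the libraries share depth and group, so the values are a description. H1f0, a linker histone gene, was at 125 to 152 CPM in knockdown, 60.5 to 93.8 CPM in scrambled and 146 and 153 CPM in sham libraries.

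Other genes of the IGF system were followed in lists of 88 genes, of which 77 were tested. In scrambled against sham libraries 2 of the 77 were called higher and 0 lower (2.60%, beside 1.58% of all genes). Their median log2 change was 0.35, beside 0.00 over all genes. At an unadjusted p under 0.05 there were 36 of the 77 (29.2% of all genes). In knockdown against scrambled libraries 0 of the 77 were called and 30 had an unadjusted p under 0.05 (32.4% of all genes), and in knockdown against sham libraries 0 were called and 2 had an unadjusted p under 0.05 (2.37% of all genes). DESeq2 called 22 of the 77 higher and 1 lower in scrambled against sham libraries, where it called 9.68% of all genes higher and 5.52% lower. It called 3 of the 77 higher and 14 lower in knockdown against scrambled (5.80% and 11.2% of all genes), and 1 higher and 0 lower in knockdown against sham libraries (0.176% and 0.00733%). Without scrambled library 2 the edgeR test called 40 higher and 10 lower in scrambled against sham libraries, beside 25.3% of all genes higher and 25.4% lower. In knockdown against scrambled libraries it then called 10 higher and 40 lower, beside 27.2% and 26.6% of all genes. Without sham library 1 it called 0 of the 77 in each, and also 0 of all 13646 tested genes in each.

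Socs3, an inhibitor of cytokine and growth hormone receptor signalling, was one of the called genes. It was at 1281, 1382 and 1421 CPM in knockdown, 4301, 2204 and 4320 CPM in scrambled and 827 and 1190 CPM in sham libraries. The groups did not overlap. It rose by 1.84 ± 0.34 on the log2 scale in scrambled against sham libraries (adjusted p = 0.0389) and kept the call in 8 of 17 alternatives (adjusted p from 1.55e-06 to 0.372). The call was lost without sham library 1 (0.372), sham library 2 (0.204), scrambled library 1 (0.0820), scrambled library 3 (0.110) or any 1 knockdown library (0.0923 to 0.0962). Igf2bp2, which encodes an RNA-binding protein that binds Igf2 mRNA, rose by 1.57 ± 0.30 (adjusted p = 0.0452). It was at 20.5, 23.9 and 28.5 CPM in knockdown, 74.2, 42.1 and 71.7 CPM in scrambled and 17.1 and 25.2 CPM in sham libraries, and it kept the call in 5 of 17 alternatives (adjusted p from 3.58e-05 to 0.377). Among the omissions of 1 library, only that of scrambled library 2 kept it called. With scrambled library 2 alone the change was 1.13 for Socs3 and 0.99 for Igf2bp2, and without that library 2.10 (adjusted p = 7.75e-06) and 1.79 (adjusted p = 3.58e-05). Neither gene was called in knockdown against scrambled libraries (Socs3 -1.41 ± 0.29, adjusted p = 0.0669; Igf2bp2 -1.36 ± 0.26, adjusted p = 0.0610).

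None of the other named genes of these lists passed in any comparison. Insr, the insulin receptor, which also pairs with IGF1R, had a log2 change of 1.46 ± 0.39 in scrambled against sham libraries (adjusted p = 0.0788), and H19, imprinted together with Igf2, one of -1.56 ± 0.76 (adjusted p = 0.201). Htra1, a secreted protease that cuts binding proteins, was at 370 ± 37.0 CPM in knockdown (SD, n = 3), 172 ± 98.8 CPM in scrambled (n = 3) and 350 ± 27.5 CPM in sham libraries (n = 2), with an adjusted p of 0.140 for scrambled against sham. Mmp2, a matrix metalloproteinase, was the protease gene of the list with the highest mean, at 2205 ± 145 CPM in knockdown, 2978 ± 718 CPM in scrambled and 2285 ± 173 CPM in sham libraries. The log2 changes of Crim1 (0.54), Plau (0.33), C1s1 (0.27), Nedd4 (-0.29), Grb10 (0.11), Ptpn11 (0.08), Akt1 (0.45), Pik3r1 (0.14), Pik3r2 (-0.66), Insrr (-0.45) and Esm1 (-0.52) in scrambled against sham libraries were smaller in size than those of Insr and Htra1 (-1.02). Pappa and Stc2, named after their values were seen because PAPP-A cuts IGFBP4 and stanniocalcin 2 inhibits PAPP-A, had log2 changes of 1.41 ± 0.52 (adjusted p = 0.129) and 3.78 ± 0.91 (adjusted p = 0.0667), neither past the threshold.

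Marker lists of progenitors and of other cell types were measured beside these genes. The 12 progenitor markers summed to 48504 to 54356 CPM in knockdown, 34303, 48137 and 27984 CPM in scrambled libraries 1, 2 and 3, and 55243 and 46033 CPM in sham libraries. Much of the difference in that sum was Col3a1, a fibrillar collagen gene, at 13717, 19386 and 14230 CPM in knockdown, 990, 10123 and 974 CPM in scrambled and 22477 and 13185 CPM in sham libraries. In scrambled against sham libraries 9 of the 12 changes were below 0 and 3 above. Of the 12, 5 had an unadjusted p under 0.05 (29.2% of all genes) and none was called. Cd34 was at 1914, 1925 and 1805 CPM in knockdown, 213, 1179 and 241 CPM in scrambled and 2250 and 2156 CPM in sham libraries. Dcn, which encodes decorin, was instead highest in the scrambled group, at 16204, 12811 and 15462 CPM in knockdown, 24984, 19625 and 21059 CPM in scrambled and 11101 and 14630 CPM in sham libraries, and the Pdgfra values given above overlapped between the scrambled and sham groups. The 6 markers of mature adipocytes summed to 66.3 to 81.3 CPM in knockdown, 230, 76.7 and 221 CPM in scrambled and 55.3 and 40.6 CPM in sham libraries. Nearly all of that was Fabp4, while Lep was at 0 in every library and Adipoq reached 0.882 CPM at most. All 5 adipocyte markers tested had changes above 0 in scrambled against sham libraries. Of these, 3 had an unadjusted p under 0.05 (29.2% of all genes) and none was called. Pck1 was at 8.11, 0.0423 and 3.02 CPM in scrambled libraries 1, 2 and 3 and at most 0.167 CPM in the sham libraries. The 2 scrambled libraries with the highest Igfbp3 also had the highest Fabp4-led sums and the lowest sums of the progenitor list. The 9 markers of muscle fibres summed to 38.8 to 49.2 CPM in knockdown, 56.5, 76.7 and 198 CPM in scrambled and 26.5 and 51.1 CPM in sham libraries, and the 11 of macrophages stayed at or below 60.6 CPM in every library. The 8 endothelial markers summed to 504 to 599 CPM in knockdown, 407 to 502 CPM in scrambled and 510 and 528 CPM in sham libraries. The 9 of pericytes and smooth muscle summed to 266 to 344 CPM in knockdown, 174 to 287 CPM in scrambled and 256 and 277 CPM in sham libraries. In scrambled against sham libraries, 7 of the 8 and 7 of the 9 changes were above 0. Of these 2 lists, 5 and 7 genes had an unadjusted p under 0.05 (29.2% of all genes), with none called. Tek, the 1 endothelial marker below 0, held the largest part of that sum. It was at 201, 291 and 216 CPM in scrambled and 392 and 412 CPM in sham libraries. The 2 pericyte and smooth muscle markers below 0 were Des and Cspg4. Cspg4 was at 3.45, 35.7 and 6.86 CPM in scrambled and 92.3 and 103 CPM in sham libraries. The 6 Schwann cell markers summed to 66.3 to 75.4 CPM in knockdown, 54.5 to 95.6 CPM in scrambled and 43.8 and 49.9 CPM in sham libraries. 1 of them, the adhesion molecule gene Ncam1, was called lower in scrambled against sham libraries (-1.57, adjusted p = 0.0366, and up to 0.250 with 1 library left out), and it held without scrambled library 2 (-1.62, adjusted p = 0.000646). The 7 tenocyte markers summed to 724 to 1492 CPM in knockdown, 671 to 936 CPM in scrambled and 718 and 1217 CPM in sham libraries, and the 7 of muscle stem cells to 50.2 to 77.7 CPM in knockdown, 17.4 to 58.2 CPM in scrambled and 33.7 and 44.3 CPM in sham libraries. Vcam1 held most of the muscle stem cell sum in the knockdown and sham libraries. It was at 10.8, 47.8 and 9.89 CPM in scrambled libraries 1, 2 and 3 and at 30.6 and 39.8 CPM in sham libraries. Of the 4 muscle stem cell markers tested, 3 had changes above 0 in scrambled against sham libraries and 1 below, with none called. The sums for neutrophils, lymphocytes, epithelial tumour cells and red blood cells stayed at or below 18.3 CPM. The 4 haemoglobin genes of the list were at 0 in every library. The part of these in the IGF differences was not tested.

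**Figure D5:**
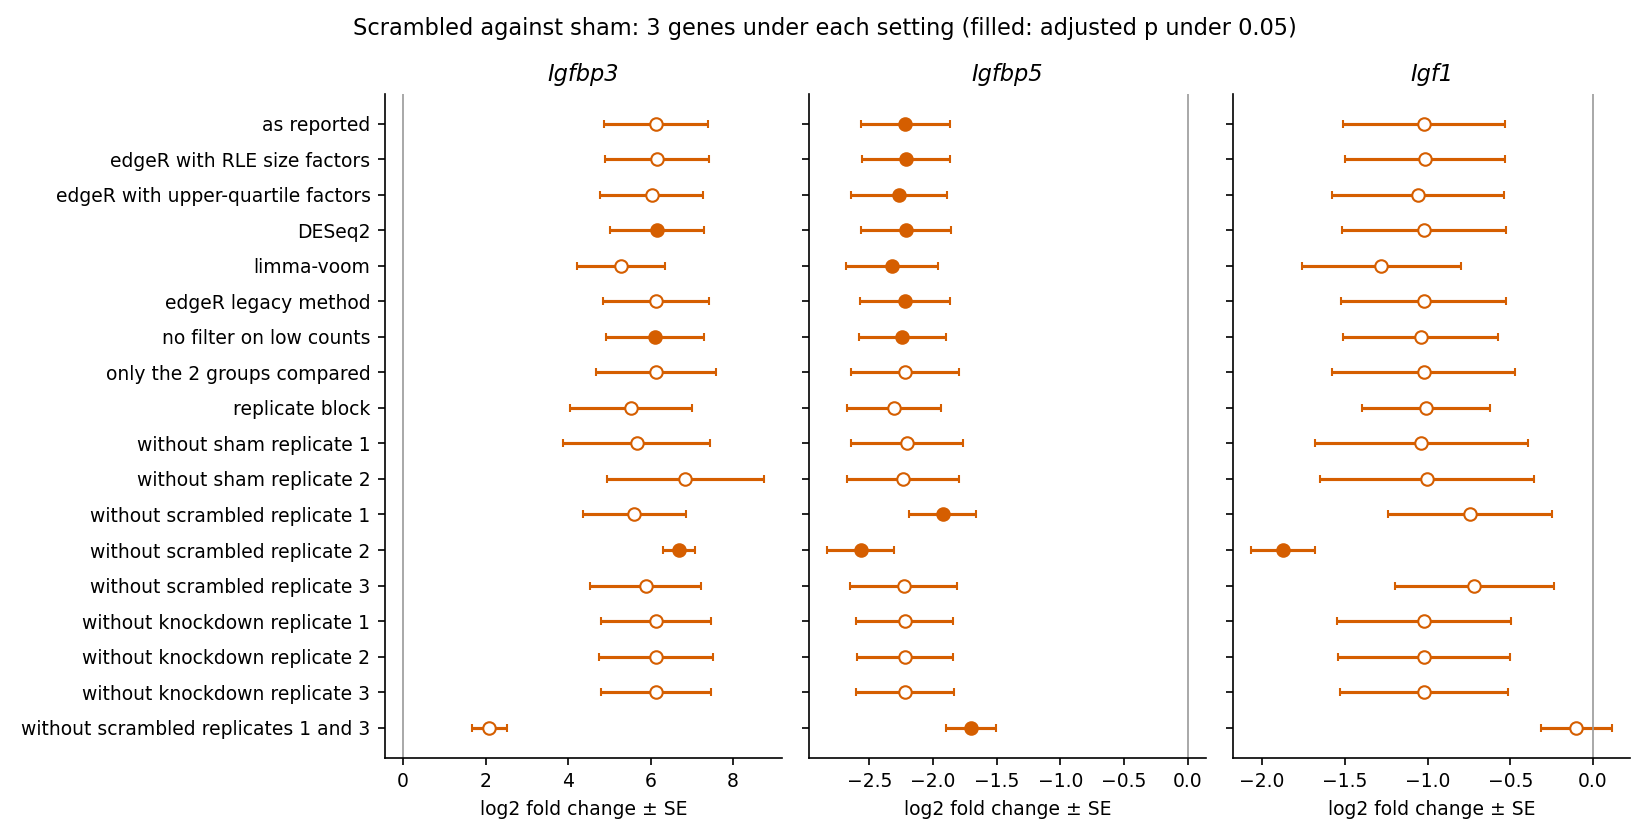
Log2 change of Igfbp3, Igfbp5 and Igf1 in scrambled against sham libraries under each setting (points; bars, ± 1 SE; filled where the adjusted p was under 0.05). Igfbp5 ranges from -2.57 to -1.70, while Igfbp3 ranges from 2.09 to 6.85 and Igf1 from -1.87 to -0.10, with the values nearest 0 where scrambled library 2 is alone in its group.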

How the data were processed

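The deposited table holds raw read counts by gene symbol, 1 column for each of 8 libraries. Per the labels, libraries were made with a stranded mRNA kit from RNA of integrity number 7 or more and read as paired ends of 59 bases. The submitters' processing notes name the build mm10 and, without roles, STAR, Bowtie, bcl2fastq 2.20, R 4.2.1 and DESeq2 1.36.0. The sources used here do not give the counter, its annotation or its strand setting. Gene positions come from GENCODE M21.

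Counts were analysed in R 4.3.3 with edgeR 4.0.16: filterByExpr (minimum count 10, total 15), TMM, and a robust quasi-likelihood fit of 3 group means to the 8 libraries together, with 1 shared spread. Two-sided tests were adjusted by Benjamini and Hochberg over the 13646 tested genes, with a threshold of 0.05. Errors of log2 changes are standard errors from the F statistic, and errors of CPM are SDs. Log2 CPM for likeness and the principal component used a prior count of 2. Alternatives were other scaling factors, DESeq2 1.42.0, limma-voom 3.58.1, the legacy edgeR method, no filter, the 2 compared groups alone, a replicate block and leaving out each library. Leaving out scrambled libraries 1 and 3, and running the alternatives on called pathway and marker genes, were added after seeing the data.

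The 10 genes and all lists were chosen with earlier results of these data known. All 10 genes are named, with every called gene of 7 pathway lists or, where a list had none, up to 3 with the highest mean CPM, and up to 5 genes of mean CPM at least 5 most like each called gene. The labels call the libraries biological replicates. Depth limits precision, and counting error covers reads, not molecules. No pair of libraries held identical values.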

Additional observations from a re-analysis of the deposited data

How the results depend on the processing

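In 510 alternative values of the 10 genes' log2 changes, 469 kept direction and side of the threshold, 24 newly passed, 8 no longer passed and 9 reversed; the cause was not tested. All 8 lost calls were those of Igfbp5 in scrambled against sham libraries. None of the reversed values was called: Igfbp4 in knockdown against sham libraries gave -0.011 without a filter, and leaving out 1 library gave -0.11 to 0.13 for it, -0.34 to 0.27 for Igf1r in the same comparison, -2.15 to 0.37 for Igfbp2 in knockdown against scrambled and -0.015 to 0.31 for Igf2 in scrambled against sham libraries. The pathway gene Igf2bp2 gave -0.049 to 0.51 with 1 library left out in knockdown against sham libraries.

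Of the 10 genes, the 1 call in scrambled against sham libraries became 5 with DESeq2, 2 without a filter, 0 with only the 2 groups compared, 2 without scrambled libraries 1 and 3, and 0 to 6 with 1 library left out. The 0 calls in knockdown against scrambled libraries became 6 with DESeq2, 1 without scrambled libraries 1 and 3, and 0 to 6 with 1 library left out. All 6 came without scrambled library 2. In knockdown against sham libraries no setting called any of them.

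Over all genes, the 215 calls in scrambled against sham libraries became 2074 with DESeq2, 133 with the legacy method, 4 with only the 2 groups compared, 475 without scrambled libraries 1 and 3, and 0 to 6921 with 1 library left out. The 7 calls in knockdown against scrambled libraries became 1 with upper-quartile factors, 2320 with DESeq2, 1 with the legacy method, 11 without a filter, 0 with the 2 groups alone, 97 without scrambled libraries 1 and 3, and 0 to 7335 with 1 library left out; upper-quartile factors gave 0 higher and 1 lower, beside 1 higher and 6 lower as reported. The 1 call in knockdown against sham libraries became 2 with upper-quartile factors, 25 with DESeq2, 2 without a filter, 99 with the 2 groups alone, 103 without scrambled libraries 1 and 3, and 0 to 32 with 1 library left out.

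Replicate numbers are shared by the groups, and the labels do not state that they pair libraries. Deviations of same-numbered libraries from their group means correlated at -0.06 to 0.17. In groups of 2 or 3 libraries these deviations depend on each other, so the correlations cannot exclude a pairing. With the replicate block the calls over all genes were 16 in scrambled against sham libraries and 0 in both knockdown comparisons, and those of the 10 genes 0, with Igfbp5 at -2.31 (adjusted p = 0.0843) in scrambled against sham libraries. A lone library left in a group is assumed to vary like those of the other groups. Depth limits Igfbp2 and the gene of miR-27a, and no other of the 10 genes fell below 406 reads in any library.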
